A study of Bos taurus with 10 samples.

Results

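*STC1*, *TGFB2*, *MAOA* and *PPP3CA* are 4 genes that the study picked from its own array list of transcripts higher after maturation and then measured by qPCR. Each gene had 1 probe set, so these 4 probe sets are described here out of 24016 on the array that are not controls. As the genes were chosen on the same comparison and the same arrays, their higher level after maturation is not a finding of this text, and their values are given with no test. The samples were 5 pools of immature bovine oocytes, denuded at once (0 h), and 5 pools of in vitro matured (IVM) oocytes, denuded after 24 h with their cumulus in TCM-199 with 10% fetal calf serum and 10 ng/ml of epidermal growth factor at 39°C in 5% CO2. All complexes came from 3 to 8 mm follicles of slaughtered cows whose breed, age and treatment the labels do not give. Denuded oocytes without visible cumulus were frozen 10 to a tube and pooled, so no value belongs to a single oocyte. From each pool, 100 ng of total RNA was amplified in 2 rounds and put on its own Affymetrix bovine array. The question was which transcripts differ between the stages. Values are log2 values as deposited, 1 per probe set and array.

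Maturation takes the fully grown oocyte from arrest in the first meiotic prophase to arrest at the second metaphase, while the cumulus cells around it expand. A growing oocyte stores messenger RNA, and much of that store is translated or degraded during maturation. Stanniocalcin 1, encoded by *STC1*, is a secreted glycoprotein first known from calcium control in fish, which in mammals also inhibits the protease PAPP-A and so acts on insulin-like growth factor (IGF) binding proteins. *TGFB2* encodes a secreted ligand of the transforming growth factor beta family, which is held in a latent complex, binds type II and type I receptor kinases and signals through SMAD proteins. Monoamine oxidase A (*MAOA*) lies in the outer mitochondrial membrane and oxidises serotonin and other amines. *PPP3CA* encodes the alpha catalytic subunit of calcineurin, the phosphatase that calcium and calmodulin activate and that dephosphorylates NFAT transcription factors.

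The labelled cell type was checked by its defining transcripts. All 9 of the oocyte markers found on the array gave values that varied between arrays, among them *GDF9*, *ZP2*, *ZP3* and *NLRP5*, and none of the 8 blood and endothelial markers did, *PTPRC* included. A probe set is said to vary when its 10 values span at least 0.01 on the log2 scale, which 9460 of the 24016 did, and all 4 genes described here did. Array medians ran from 7.04 to 7.10. Poly-A control transcripts, added before amplification, lay between 6.85 and 7.24 on the immature and between 7.73 and 8.23 on the IVM arrays. Hybridization controls lay between 9.38 and 9.73 on immature replicates 1, 2 and 3 and between 10.75 and 11.22 on the other 7 arrays. IVM replicate 4 had the lowest mean Pearson's r with its own group (0.933, across probe sets), where the other 9 arrays had 0.954 or more. The part of these differences between arrays in the values below was not tested.

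*STC1*, the secreted glycoprotein, was at 4.35, 5.34, 4.32, 8.28 and 4.66 on immature arrays 1 to 5 and at 10.78, 13.00, 12.26, 13.89 and 10.79 on IVM arrays 1 to 5. The groups did not overlap, and immature replicate 4 stood well above the other immature arrays, whose highest value was 5.34. The immature mean was 5.39 ± 1.67 and the IVM mean 12.14 ± 1.37 (SD, n = 5 each), a log2 difference of 6.75 (standard error 0.97), or 108-fold on the scale of these summarised values. Only 0.075% of all probe sets had a lower immature mean, and *PTPRC*, which did not vary, was at 6.71 on every array. The fold therefore rests on an immature value near the lowest that the summary gave. Ordered by log2 difference, *STC1* was at place 13 among the 9460 probe sets that varied. Without immature replicate 4 the immature mean was 4.67 ± 0.48 (SD, n = 4) and the difference 7.48. With immature replicates 4 and 5 alone set against the IVM arrays, the difference was 5.68.

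*TGFB2*, the growth factor ligand, was at 5.84, 6.16, 5.91, 6.21 and 5.80 on the immature arrays and at 8.34, 8.65, 8.29, 9.78 and 7.54 on the IVM arrays, in replicate order. The immature pools lay close together and the IVM pools spread over more than 2 log2 units, with replicate 4 highest and replicate 5 lowest. The means were 5.98 ± 0.19 and 8.52 ± 0.82 (SD, n = 5 each), a log2 difference of 2.54 (standard error 0.37), or 5.81-fold, at place 203 of the 9460. Only 0.75% of all probe sets had a lower immature mean, so this fold too rests on a value near the lowest. Without both arrays numbered 4 the difference was 2.28.

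*MAOA*, the amine oxidase, was at 6.48, 6.40, 6.48, 6.52 and 6.48 on the immature arrays and at 8.10, 9.24, 8.79, 9.98 and 7.67 on the IVM arrays. It was nearly constant in immature oocytes and varied widely in IVM oocytes, with an SD of 0.044 against 0.915, a ratio of 20.6. The means were 6.47 and 8.76 (n = 5 each), a log2 difference of 2.29 (standard error 0.41), or 4.88-fold, at place 260. The deposited summary returns almost 1 value on every array where the probes of a set share no signal, as it did for 14556 probe sets, so a small spread at a low value does not show a precisely measured low level.

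*PPP3CA*, the calcineurin catalytic subunit, was at 7.02, 7.04, 7.07, 7.75 and 7.09 on the immature arrays and at 8.92, 9.99, 8.89, 10.49 and 8.30 on the IVM arrays. Immature replicate 4 stood apart again, the other 4 immature arrays spanning 0.074. The means were 7.20 ± 0.31 and 9.32 ± 0.89 (SD, n = 5 each), a log2 difference of 2.12 (standard error 0.42), or 4.36-fold, at place 314. The gap between the lowest IVM and the highest immature array was 0.55, against 1.16 for *MAOA*, 1.34 for *TGFB2* and 2.50 for *STC1*. For each of the 4 genes all 5 IVM arrays lay above all 5 immature arrays, which 11.6% of all probe sets did, and the rule that chose the genes used this contrast.

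**Figure D1:**
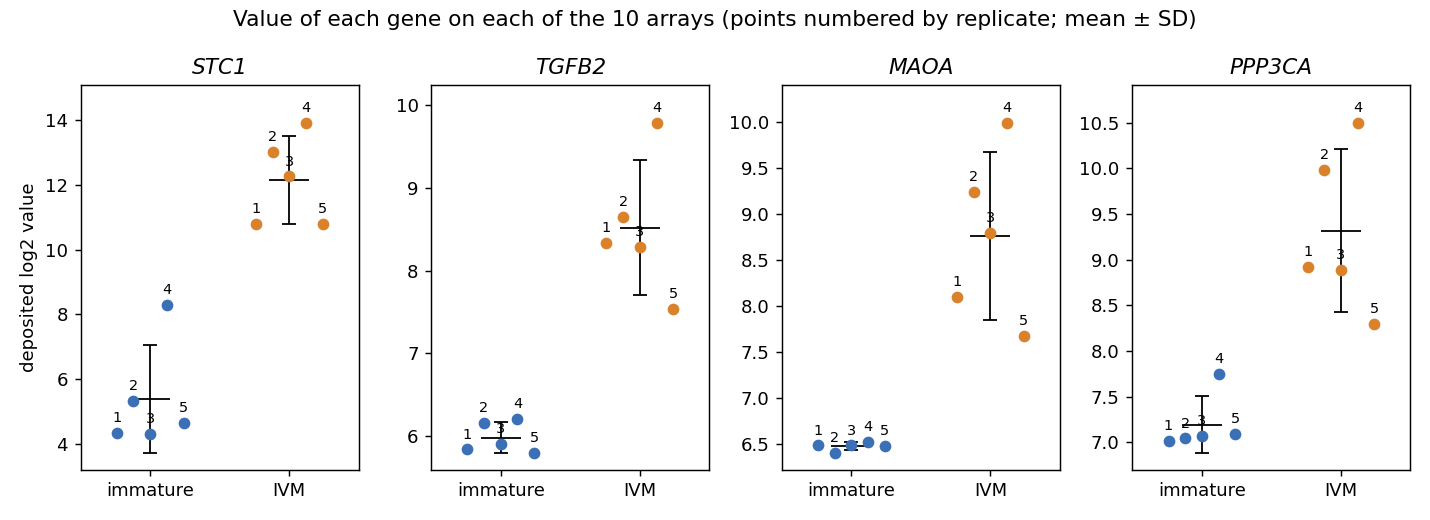
Deposited log2 value of each gene (vertical axes, a separate scale for each gene) on the 5 immature and 5 IVM arrays, with points numbered by replicate and a line and bar for the mean ± SD (n = 5). The groups do not overlap for any of the 4 genes, and immature replicate 4 lies above the other immature arrays for *STC1* (8.28) and *PPP3CA* (7.75).

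The 4 genes ordered the IVM pools in much the same way, and so did the summed markers of cumulus expansion, of granulosa and of theca and stroma. Each sum adds linear levels, so genes with high values weigh most in it, and single markers did not all share the order. IVM replicate 4 was the highest array for all 4 genes and replicate 2 the next, while replicate 5 was the lowest for *TGFB2*, *MAOA* and *PPP3CA* and differed from replicate 1, the lowest, by less than 0.01 for *STC1*. On average over the 4 genes, IVM replicate 4 lay 1.35 above and replicate 5 lay 1.11 on the log2 scale below its group mean (-1.11). Immature replicate 4 was the highest immature array for each of the 4 genes, by 2.94 for *STC1*, 0.66 for *PPP3CA*, 0.050 for *TGFB2* and 0.036 for *MAOA*. Between same-numbered arrays the difference lay between 5.61 and 7.94 for *STC1*, 1.74 and 3.58 for *TGFB2*, 1.20 and 3.47 for *MAOA*, and 1.21 and 2.94 for *PPP3CA*.

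The cumulus expansion list had 7 genes on the array, of which *CD44* and *AREG* did not vary and 5 did. All 5 rose by the test given below, where 29.8% of all genes that varied rose and 38% fell, from *PTGS2* (1.31), the prostaglandin synthase, to *TNFAIP6* (10.86, adjusted p = 7.63e-05 from limma), which links hyaluronan in the expanding matrix. *PTX3*, the pentraxin of that matrix, was at 4.62, 5.205, 4.76, 4.95 and 4.96 on the immature and at 10.20, 11.72, 10.57, 14.21 and 9.71 on the IVM arrays. The call of *HAS2*, the hyaluronan synthase (1.40, adjusted p = 0.0285 from limma), ended with the replicate number as a block (adjusted p = 0.0565) and in 7 of the 10 fits that left out 1 array (immature replicates 1, 3, 4 and 5, and IVM replicates 1, 2 and 4; adjusted p from 0.0586 to 0.0677). The summed level of the 5 genes, as a log2 value, ran from 10.04 to 11.69 on the immature and from 13.18 to 17.51 on the IVM arrays. Its order over the IVM arrays was replicate 4, 2, 3, 1 and 5, the order of *MAOA*, and among immature arrays it was highest on replicate 4. *TNFAIP6* weighed most in it on the IVM arrays, at 17.13 on replicate 4, where the sum was 17.51. By contrast, *HAS2* was highest on IVM replicate 1 and *PTGS2* on IVM replicate 2. On immature replicate 4 the sum rested mostly on *VCAN*, another of the 5 genes, at 11.26 where the sum was 11.69. *HAS2*, *PTX3* and *PTGS2* were instead highest on immature replicate 2. The summed level of the 9 oocyte markers ran from 16.03 to 16.50 on the immature and from 14.55 to 15.33 on the IVM arrays, and was lowest on replicate 4 in both groups. Of these 9, 5 fell, 1 rose and 3 were not called, so 66.7% were called against 67.8% over all genes that varied. *KPNA7* rose by 0.37 (adjusted p = 0.00575 from limma), and *BMP15*, *MOS* and *OOEP* were not called.

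The summed granulosa markers and the summed theca and stroma markers had the same order over the IVM arrays, replicate 4, 2, 3, 1 and 5. Single granulosa genes went both ways, as *STAR*, *FSHR* and *CYP19A1* were lowest on IVM replicate 4, while *INHA*, *INHBA* and *FST* were highest on it. Of 13 granulosa genes on the array, 11 varied, of which 4 (36.4%) fell, near the share over all genes that varied, and none rose. These 4 were *HSD17B1* (-5.75), *CYP19A1* (-1.38), *STAR* (-1.19) and *KITLG* (-0.66). The summed level of the 11 genes was 13.13 to 15.51 on the immature and 12.27 to 14.54 on the IVM arrays. Among immature arrays this sum was highest on replicate 3 (15.51), with 15.37 on replicate 4. *FSHR*, the receptor of follicle-stimulating hormone, had a log2 difference of -0.29 (adjusted p = 0.157 from limma), and fell by 0.40 without immature replicate 2 (adjusted p = 0.0111). Of 8 theca and stroma genes, 4 varied and 3 of these rose, *LUM* by 4.37, *DCN* by 1.79 and *COL3A1* by 0.0093. So 37.5% of the 8 were called, near the 37.9% over all 9155 genes. The call of *COL3A1* ended without any 1 of the 5 immature arrays or IVM replicate 3 (adjusted p from 0.0594 to 0.0800 from limma). Those of *LUM* and *DCN* ended without immature replicates 1, 2 and 3 (adjusted p = 0.0954 and 0.139 from limma). The summed level of the 4 genes that varied was 7.98 to 8.83 on the immature and 9.50 to 12.42 on the IVM arrays. The part of cumulus or other somatic transcripts in the levels of *STC1*, *TGFB2*, *MAOA* and *PPP3CA* was not tested, and in such pools more cells of a type and more RNA per cell cannot be told apart.

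**Figure D2:**
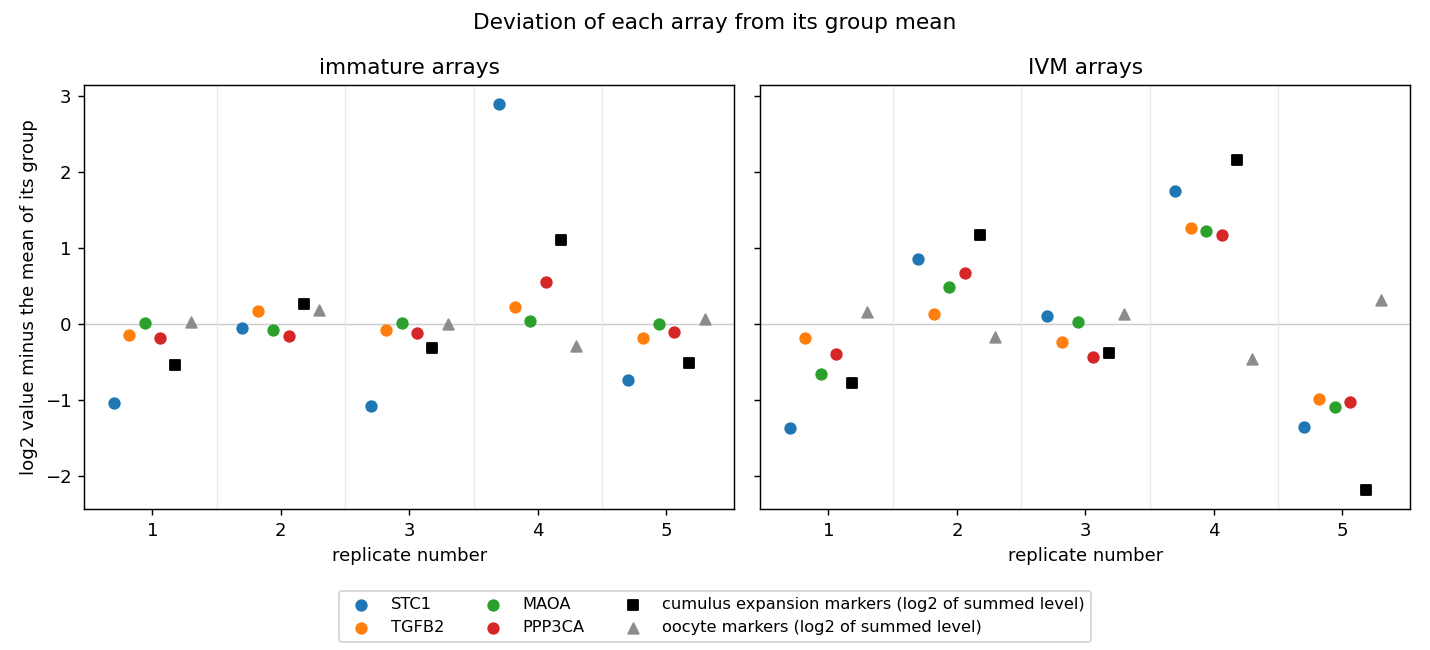
Deviation of each array from its group mean on the log2 scale (vertical axis), by replicate number (horizontal axis), for the 4 genes, for the summed level of the 5 cumulus expansion markers that varied and for that of the 9 oocyte markers. In IVM oocytes the 4 genes and the cumulus markers lie above the group mean on replicate 4 and below it on replicate 5, and the oocyte markers lie the other way.

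The genes with the most similar pattern were found by the root mean square difference over the 10 arrays, after each probe set was centred on its own mean. Among the 4 genes, *MAOA* and *PPP3CA* differed least (0.27), *TGFB2* was close to both (0.27 from *MAOA* and 0.32 from *PPP3CA*), and *STC1* was 2.37 or more from each. Nearest to *STC1* were *TCN2*, the plasma carrier of vitamin B12 (0.47), *G0S2*, an inhibitor of lipolysis (0.57), and *THBS2*, a thrombospondin of the extracellular matrix (0.61). *TCN2* had means of 6.63 ± 1.99 and 12.77 ± 0.99 (SD, n = 5 each, immature first), and was at 10.08 on immature replicate 4.

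*NDP*, which encodes norrin, a secreted ligand of a frizzled receptor, was the nearest gene to both *TGFB2* (0.16) and *MAOA* (0.19), and was at 5.80 ± 0.14 and 8.15 ± 0.83 (SD, n = 5 each). *TGFB2* was next nearest to *BZW1* (0.17) and to *DSC2*, a desmosomal cadherin (0.22), and *MAOA* to *PARP8* (0.20) and to *COL4A1*, a chain of basement membrane collagen (0.20). Nearest to *PPP3CA* were *AIF1L* (0.16), *PDK4*, a kinase that inhibits pyruvate dehydrogenase (0.17), and *PARP8* (0.18). These distances describe 10 arrays in 2 groups and are set largely by the difference between the groups.

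The genes around these 4 were compared with limma over all 24016 probe sets, 1 probe set a gene, and are said to rise or fall at an adjusted p under 0.05. At that threshold 30.5% of all probe sets were called, as were 42.2% of the 9155 genes with a single symbol (18.3% higher and 24% lower) and 67.8% of the 5121 such genes that varied (29.8% higher and 38% lower). The lists below count a gene as called only where it also varied, which held for 37.9% of the 9155 genes. At an adjusted p under 0.0001, 10.2% of the genes were called. Centring the arrays on the poly-A controls moved every difference alike, by -0.94, so that any smaller rise turned negative by construction. With immature replicates 1, 2 and 3 left out, fewer genes of most lists were called, as given with each list. Of 48 named genes called, 25 calls ended in that fit, and not all of these are given with their gene.

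In the TGF-beta pathway, *SMAD3* fell steeply while *SMAD4* and the type II receptor rose, and neither of the other ligands gave a varying value. *TGFB1* and *TGFB3* were on the array and did not vary. *TGFBR2*, the type II receptor, was at 6.51, 7.10, 6.61, 6.61 and 6.78 on the immature and at 8.51, 9.06, 8.55, 9.66 and 8.22 on the IVM arrays and rose by 2.08 (standard error 0.27, adjusted p = 6.05e-04 from limma). Its IVM arrays fell in the order of those of *MAOA*, with replicate 4 highest and 5 lowest. *ACVRL1*, a type I receptor, fell by 0.29 (adjusted p = 0.0151), a call that ended when arrays were centred on the median of the varying probe sets (-0.19, adjusted p = 0.145) and without immature replicates 1, 2 and 3 (adjusted p = 0.156).

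Among the SMAD proteins, *SMAD3*, which activated receptors phosphorylate, was at 11.75, 11.52, 11.37, 11.48 and 11.60 on the immature and at 6.74, 6.56, 5.98, 5.96 and 6.76 on the IVM arrays. The groups lay far apart and it fell by 5.15 (standard error 0.19, adjusted p = 4.54e-07 from limma). *SMAD2*, its close relative, fell by 1.04 (adjusted p = 8.33e-04), a call that ended without immature replicates 1, 2 and 3 (adjusted p = 0.0511 from limma). *SMAD4*, the shared partner, was at 8.42 ± 0.61 and 10.83 ± 0.92 (SD, n = 5 each) and rose by 2.41 (adjusted p = 0.00607), although its call ended without immature replicates 1, 2 and 3 (adjusted p = 0.103).

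Of the other genes of this pathway, *ITGAV*, an integrin subunit that activates latent ligand, rose by 3.69 (adjusted p = 0.0228 from limma). Its other probe set rose by 2.46. The call of the probe set that rose by 3.69 ended without immature replicate 1, immature replicate 3 or IVM replicate 2 (adjusted p from 0.0517 to 0.0565). *FKBP1A*, which binds type I receptors, rose by 1.74, and the SMAD corepressor *TGIF1* by 0.94, a call that ended under poly-A centring (adjusted p = 0.999). *TGFBI*, a matrix protein that the pathway induces, fell by 0.60, and *NRROS*, which anchors latent ligand, by 0.51. Of 34 genes of the list on the array, 21 varied, 6 rose and 5 fell, so 32.4% were called, against 37.9% over all genes. Their median log2 difference was 0.51, against 0.0045 over all genes that varied. With immature replicates 4 and 5 alone, 3 rose and 3 fell.

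*IGFBP3*, the main carrier of IGF in plasma, was the gene of the stanniocalcin, PAPP-A and IGF list with the largest rise. It was at 9.26, 8.08, 7.48, 9.12 and 8.59 on the immature and at 11.50, 11.52, 11.53, 12.78 and 11.50 on the IVM arrays and rose by 3.26 (standard error 0.42, adjusted p = 5.09e-04 from limma). Its IVM values were alike but for replicate 4. *IGF2R*, the receptor that clears IGF2, rose by 1.21 (adjusted p = 6.74e-04), and had 0.27 under poly-A centring (adjusted p = 0.121). Another probe set of each gene rose too, by 1.74 and 1.002. *STC2*, the paralogue of *STC1*, was not found on the array, and *PAPPA*, *IGF1* and *IGF2* did not vary. Of 12 genes on the array, 5 varied, 2 rose, none fell and 16.7% were called, against 37.9% over all genes. The median log2 difference was 0.72. With immature replicates 4 and 5 alone, the count was also 2.

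In calcium and phosphate transport, 3 genes rose and 3 fell. *ITPR1*, the inositol trisphosphate receptor that releases calcium from the endoplasmic reticulum at fertilisation, was at 10.13, 10.84, 10.30, 9.54 and 10.19 on the immature and at 7.37, 7.68, 8.09, 8.34 and 6.58 on the IVM arrays. It fell by 2.58 (standard error 0.37, adjusted p = 9.61e-04 from limma), and by 2.46 and 1.54 on its other probe sets that varied. *SLC20A2*, a phosphate transporter, rose by 1.496 (adjusted p = 0.00324, and 0.59 with hybridization centring, adjusted p = 0.13), and *ATP2C1*, a calcium pump of the Golgi, by 0.79 (adjusted p = 0.0205), with -0.14 when arrays were centred on the poly-A controls.

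The smaller calls of this list each ended in several fits. *ORAI1*, a plasma membrane calcium channel, fell by 0.57 (adjusted p = 0.0244), *CASR*, the calcium-sensing receptor, fell by 0.40 (adjusted p = 0.0270), and *SLC8B1*, a mitochondrial exchanger, rose by 0.43 (adjusted p = 0.0273, and -0.50 with poly-A centring), all from limma. Each call ended with the replicate number as a block (adjusted p from 0.0637 to 0.0919). Each also ended without some single arrays, which were immature replicates 1, 2 and 5 and IVM replicate 2 for *ORAI1* (0.0559 to 0.0598), immature replicates 1 and 2 and IVM replicates 2 and 3 for *CASR* (0.0519 to 0.0659), and immature replicates 1 and 3 and IVM replicates 1, 4 and 5 for *SLC8B1* (0.0540 to 0.0623). The call of *ATP2C1* ended without immature replicate 5 (0.0524). Of 22 genes on the array, 12 varied and 27.3% were called, against 37.9% over all genes. The median log2 difference was 0.05. Without immature replicate 1, 3 genes were called, and with immature replicates 4 and 5 alone, 1.

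Around *MAOA*, most called genes of monoamine synthesis, transport and breakdown fell. Over all genes that varied, 29.8% rose and 38% fell. *SLC6A4*, the serotonin transporter, was at 10.87, 11.64, 10.41, 11.12 and 11.31 on the immature and at 6.38, 6.28, 5.80, 5.69 and 6.88 on the IVM arrays and fell by 4.87 (standard error 0.30, adjusted p = 6.9e-06 from limma). *AKR1B1* and *AKR1A1*, aldehyde reductases, fell by 3.04 and 2.79. The aldehyde dehydrogenase *ALDH1A1* fell by 1.502, and *QDPR*, which recycles the cofactor tetrahydrobiopterin, fell by 1.58. *MAOB*, the paralogue of *MAOA*, did not vary, and no receptor of serotonin, adrenaline or dopamine on the array did (12 genes).

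Among the rises of this list, *SULT1A1*, a sulfotransferase of phenols and amines, rose by 0.69 (adjusted p = 0.0138 from limma), with -0.25 under poly-A centring, and *SLC18A2*, the vesicular monoamine transporter, by 0.40 (adjusted p = 0.0266), with -0.54 under that centring. The call of *SLC18A2* ended without any of immature replicates 1, 3, 4 and 5 and IVM replicates 1, 2 and 5 (adjusted p from 0.0510 to 0.0647). Of 37 genes on the array, 12 varied, 2 rose and 7 fell, so 24.3% were called, against 37.9% over all genes. The median log2 difference was -1.04. With immature replicates 4 and 5 alone, 3 fell and none rose.

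**Figure D3:**
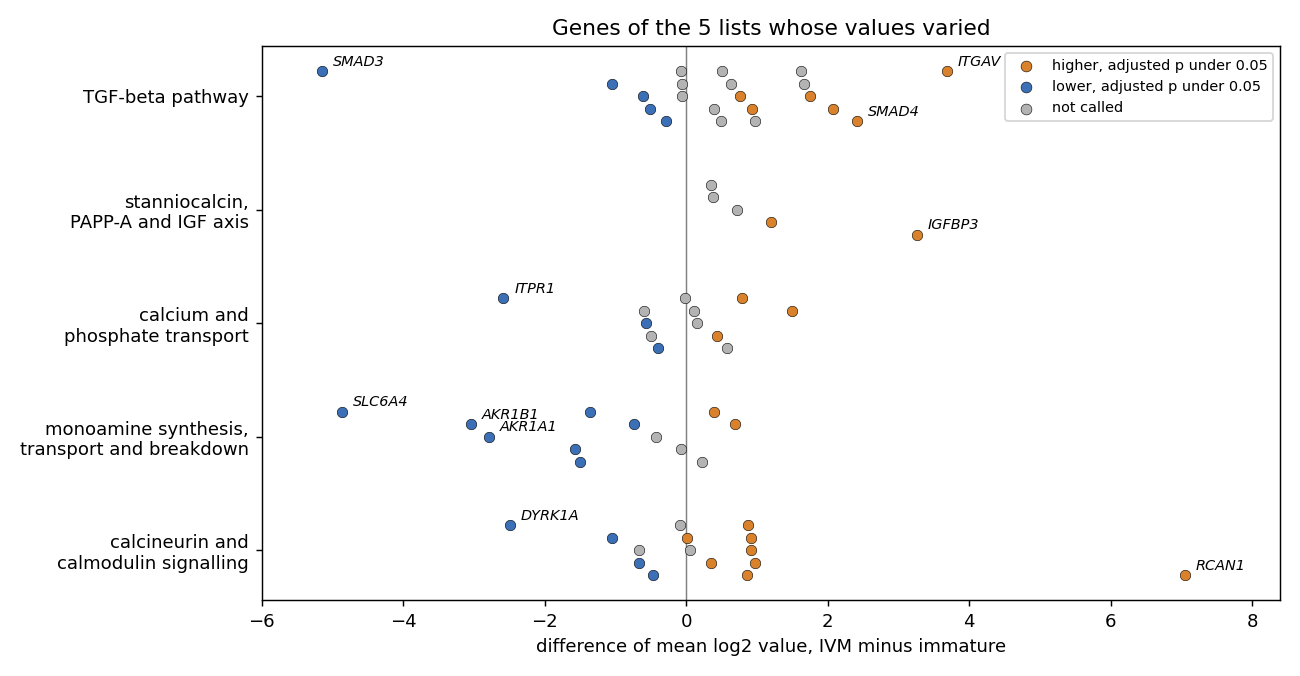
Log2 difference, IVM minus immature (horizontal axis), of each gene whose value varied in the 5 lists (rows), coloured by whether it was higher, lower or not called at an adjusted p under 0.05 from limma. Points are offset vertically only to keep them apart. *RCAN1* (7.05) has the largest rise and *SMAD3* (-5.15) the largest fall of the genes shown.

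Neither of the other catalytic subunits of calcineurin was called, while *PPP3R1* and the regulator *RCAN1* rose. *PPP3CB*, the beta catalytic subunit, was at 8.71, 8.86, 8.67, 8.53 and 8.67 on the immature and at 8.85, 8.43, 8.77, 8.10 and 8.84 on the IVM arrays, a log2 difference of -0.09 (standard error 0.15, adjusted p = 0.751 from limma), and -1.03 under poly-A centring (adjusted p = 3.38e-04). Another probe set of it had a difference of 0.999 and was not called (adjusted p = 0.0531 from limma). *PPP3CC*, the gamma catalytic subunit, was at 7.66 ± 0.17 and 6.99 ± 0.65 (SD, n = 5 each), a difference of -0.67 (adjusted p = 0.144), and it fell by 0.89 without IVM replicate 4 (adjusted p = 0.0211) and by 0.88 without both arrays numbered 4 (adjusted p = 0.0486), and had -1.60 under poly-A centring (adjusted p = 4.74e-06). *PPP3R1*, the regulatory subunit, was at 6.79 ± 0.12 and 7.66 ± 0.29 and rose by 0.87 (adjusted p = 0.00183), with -0.066 when centred on the poly-A controls. Differences between *PPP3CA* and the other subunits were not tested, as *PPP3CA* was chosen for its rise. *PPP3R2* was not found on the array.

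*RCAN1*, which binds and restrains calcineurin and is itself a target of NFAT, was at 5.80, 5.85, 5.53, 7.20 and 5.75 on the immature and at 12.71, 13.81, 12.37, 15.41 and 11.07 on the IVM arrays. It rose by 7.05 (standard error 0.79, adjusted p = 2.33e-04 from limma). Its highest immature array was replicate 4, and its IVM arrays fell in the order 4, 2, 1, 3 and 5, as those of *PPP3CA* did. *NFATC3* and *NFATC1*, targets of calcineurin, fell by 0.66 and 0.47, and *MEF2C*, a transcription factor that it also acts on, by 1.05. *CRTC2*, a coactivator of CREB that calcineurin dephosphorylates, rose by 0.98 (adjusted p = 0.0175), and had 0.042 under poly-A centring (adjusted p = 0.879). The call of *NFATC1* ended with the replicate number as a block (adjusted p = 0.0656).

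Kinases that phosphorylate NFAT went both ways. *DYRK1A* was at 12.35, 12.78, 12.502, 12.51 and 12.57 on the immature and at 10.23, 10.26, 9.73, 10.27 and 9.78 on the IVM arrays and fell by 2.49 (standard error 0.14, adjusted p = 4.37e-06 from limma). *CSNK1A1* and *GSK3A* each rose by 0.92, with -0.018 and -0.013 under poly-A centring, and the call of *GSK3A* ended with the replicate number as a block (adjusted p = 0.0513). Of 30 genes of the calcineurin and calmodulin list on the array, 15 varied, 8 rose and 4 fell. That made 40.0% called, near the 37.9% over all genes, and the median log2 difference was 0.06. One of the 8, *CAMK2D*, rose by 0.01. With the block 5 rose and 3 fell, and with immature replicates 4 and 5 alone 2 rose and 2 fell.

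**Figure D4:**
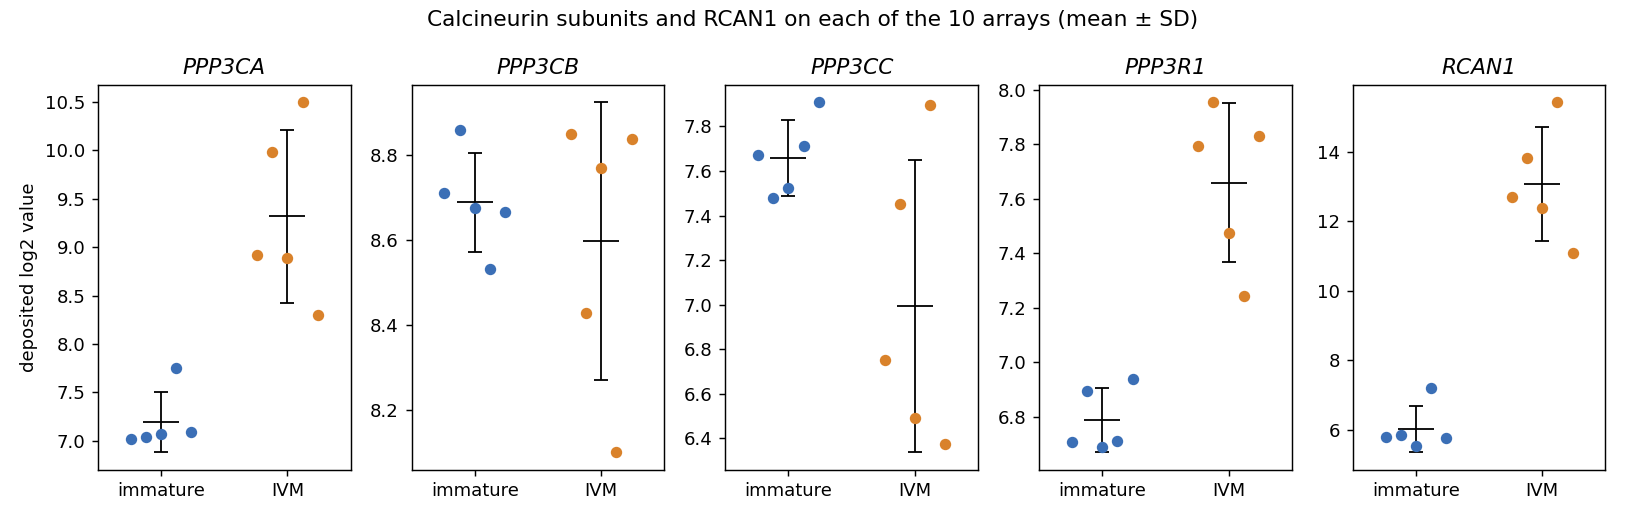
Deposited log2 value (vertical axes, a separate scale for each gene) of 4 calcineurin subunits and of *RCAN1* on the immature and IVM arrays, with points in replicate order from left to right and a line and bar for the mean ± SD (n = 5). *PPP3CA*, *PPP3R1* and *RCAN1* are higher on every IVM array than on any immature array, while the groups overlap for *PPP3CB* and *PPP3CC*.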

How the data were processed

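Images of the 10 Affymetrix bovine arrays were read with GCOS, and the authors combined the probes of each set by FARMS with quantile normalization. What they deposited is on the log2 scale. Tool versions upstream are not given in the sources used here. No column was left out (0 columns not used). Without the 112 controls, 24016 probe sets were fitted with lmFit and eBayes of limma 3.58.1 (R 4.3.3), with Benjamini-Hochberg adjustment over all of them. The fit was tested on simulated data. SAM, the test of the study's methods, was not run, and its false discovery rate of 0.0001 was applied to limma as an alternative. Symbols came from the platform annotation for 13292 probe sets, updated through RefSeq gene identifiers (13263) or accessions (2). In lists, the probe set with the highest mean stood for a gene. Other probe sets are given for some genes only. *TGFBR2*, *SMAD3*, *TGIF1*, *NFATC1*, *NFATC3* and *CSNK1A1*, among others, also had probe sets that did not vary. *CALM3*, counted as not varying in the calcineurin and calmodulin list, had another probe set that fell by 2.15 (adjusted p = 4.54e-07 from limma). The 4 genes, the 5 gene lists, the markers and the alternatives were chosen with earlier results of these data known.

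Named genes were the 4 genes, their paralogues, up to 5 called rises and 5 called falls of each list, and up to 3 called markers of each marker list besides set ones; some of these are not reported here. Replicates were days of collection in the study, but the labels do not say that equal numbers mark the same day, so the comparison was fitted without a block and again with one. The number of arrays limits the precision, and p-values measure the spread between these pools. Figures were made with Python 3.11.15 and matplotlib 3.10.9.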

Additional observations from a re-analysis of the deposited data

Results flagged for a closer look

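Within a group of 5 arrays, 1 array stood apart from the other 4, with a gap to its nearest neighbour of more than 0.71 of the group's range, in 7 of 110 groups looked at, where chance gives about 1 in 20. On immature replicate 4, *STC1* was at 8.28 (others 4.32 to 5.34), *PPP3CA* at 7.752 (others 7.02 to 7.09), *RCAN1* at 7.202 (others 5.53 to 5.85), *TNFAIP6* at 5.954 (others 3.27 to 3.77) and *COL3A1* at 6.729 (others 6.734 to 6.735). On immature replicate 2, *HAS2* was at 10.19 (others 8.91 to 9.09). On IVM replicate 4, *IGFBP3* was at 12.78 (others 11.50 to 11.53).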

How the results depend on the processing

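The log2 differences of *STC1*, *TGFB2*, *MAOA* and *PPP3CA* stayed above 0 in every alternative run, the lowest being 5.68, 1.60, 1.35 and 1.19. With 1 array left out they ran from 6.32 to 7.48, 2.22 to 2.78, 1.98 to 2.56 and 1.83 to 2.38. Centring on the poly-A or hybridization controls moved the median of all probe sets by -0.94 and -0.90, and gave 1.60 and 1.64 for *TGFB2*, 1.35 and 1.38 for *MAOA*, and 1.19 and 1.22 for *PPP3CA*. Relative to these shifts no difference of the 4 genes changed. Centring on the median of the varying probe sets moved the median of all by 0.10.

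Of the genes called in the lists, with 1 array left out the TGF-beta list had 10 to 12, the stanniocalcin list 2 to 3, the transport list 3 to 7, the monoamine list 8 to 9 and the calcineurin list 10 to 13. Without immature replicates 1, 2 and 3, a fit with fewer samples, these were 6, 2, 1, 3 and 4. At an adjusted p under 0.0001 they were 1, 0, 0, 2 and 1 by limma, where 3 genes of the stanniocalcin and 7 of the transport list had an unadjusted p under 0.05. Poly-A centring gave 4 higher and 9 lower, 1 and 2, 1 and 10 (11 in all), 0 and 11, and 1 and 9, and hybridization centring 5 and 8, 1 and 0, 0 and 7, 0 and 9, and 1 and 8. Centring on the median of the varying probe sets gave 9 and 4 for the TGF-beta and 5 and 1 for the transport list, and a second quantile normalization 4 and 1 for the transport list. Across varying probe sets, what was left after the group mean was taken off correlated between arrays of equal number (1 to 5) with r = 0.143, -0.347, 0.0872, 0.672 and 0.359, so equal numbers were not shown to pair the arrays, and immature replicates 1, 2 and 3 correlated better with another number. The replicate block gave 11, 3, 4, 8 and 8 in all. It left the 4 differences as they were, with a standard error of 0.45 for *STC1*, and of 48 named genes called, 41 calls stayed and 7 ended, *COL3A1* (adjusted p = 0.155 from limma) and the 6 named above.

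Differences that changed sign did so under control centring, by poly-A and hybridization controls in turn. They were *ATP2C1* (-0.14 and -0.11), *SLC8B1* (-0.50 and -0.47), *SULT1A1* (-0.25 and -0.21), *SLC18A2* (-0.54 and -0.51), *PPP3R1* (-0.066 and -0.033) and *COL3A1* (-0.93 and -0.89), and with poly-A controls alone *GSK3A* (-0.013) and *CSNK1A1* (-0.018). Each centring subtracts 1 value from all probe sets alike, so a rise smaller than that shift had to change sign. Among other named calls, those of *TGIF1*, *CRTC2*, *IGF2R* and *HAS2* ended under both, and *PPP3CB*, *PPP3CC* and *FSHR* became called lower. Leaving out both arrays numbered 4, chosen after seeing the data, gave 11, 2, 5, 9 and 12 called genes.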
